A study of Homo sapiens with 6 samples.

Results

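The genes described here encode ribosome biogenesis factors, the proteins that build ribosomes and are then released from them. They were found as the table rows with an Ensembl gene identifier whose Gene Ontology (GO) column held the term ribosome biogenesis, leaving out genes whose symbol starts with RPL or RPS. Of 60605 rows with such an identifier 98 carried the term, 3 were ribosomal protein genes, and 95 remained. All 95 passed the filter on low counts, out of 16707 genes that did. The term was selected because genes carrying it stood out among the higher genes in earlier results from this same contrast. The differences between the media given here for these genes are therefore a description, with no test.

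The measurements were made in LX-2 cells, an established human line derived from hepatic stellate cells, kept for 24 h in the conditioned medium of HCT116, a human cell line established from a colorectal carcinoma. The HCT116 cells carried either an empty lentiviral vector (Vector-CM, n = 3) or an FGFBP1 overexpression construct (FGFBP1-CM, n = 3), and were stable lines obtained by puromycin selection. FGFBP1 is a secreted protein that carries fibroblast growth factors. Both groups shared the LX-2 cells, the basal medium (DMEM with 10% fetal bovine serum) and the tumor line, and no library from unconditioned medium was analysed. Since FGFBP1 was overexpressed in the HCT116 cells and not in the cells sequenced, no library can show the overexpression itself. Nothing in the labels says that the 3 libraries of a group came from separate cultures, so the spread between them may be technical.

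Ribosome production starts in the nucleolus, where RNA polymerase I makes a long precursor that holds most of the ribosomal RNAs. Small nucleolar ribonucleoproteins (snoRNPs) guide the chemical modification of this precursor, the small subunit processome folds and cuts the part that becomes the 40S subunit, and a separate line of factors assembles the 60S subunit before both are exported and finished in the cytoplasm. Mitochondria have ribosomes of their own, with their own assembly factors. Activated stellate cells secrete large amounts of matrix protein, a synthesis that depends on their ribosomes.

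Total counts per library were between 14003780 and 18508113. FGFBP1-CM replicate 1 stood apart from the other libraries: the chi-square per degree of freedom over gene counts ranged from 9.50 to 20.3 in its pairs and from 2.81 to 10.8 in the other pairs. The main results are therefore also given without it. Of 13 stellate markers 12 passed the filter, with a median of 2.94 FPKM. VIM (mean of 457 FPKM), TIMP1 (204 FPKM) and SPARC (94.8 FPKM) were abundant, ACTA2 (1.5 FPKM), COL1A2 (2.03 FPKM) and TAGLN (2.5 FPKM) were low, and DES had 8 counts in Vector-CM and 6 in FGFBP1-CM. The summed level of 12 colorectal epithelial markers was 2.36 to 3.62 CPM in Vector-CM and 2.11 to 2.89 CPM in FGFBP1-CM, with CEACAM5 at 0 in every library.

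The ribosome biogenesis genes were expressed above the typical gene in these cells. Their median level over the 6 libraries was 11.1 FPKM, against 3.90 FPKM for all tested genes. All 95 are protein-coding, and the median of the 12896 tested protein-coding genes was 5.67 FPKM. When the ranking of all tested genes by FPKM was divided at its middle, 82 of the 95 lay in the upper part. FPKM (fragments scaled to gene length and library size) is used wherever different genes are compared. CPM (counts scaled to library size with TMM factors) is used where a gene is compared between libraries, except for NOP56. Summed levels of the marker lists are CPM without TMM factors. NOP10, a small protein of the box H/ACA snoRNPs that direct pseudouridylation, was highest at 106 ± 5.70 FPKM (SD, n = 6), which ranked 249 of 16707. It was followed by XRCC5 (72.6 FPKM), a DNA end-binding protein of the Ku dimer, SBDS (50.6 FPKM), the protein mutated in Shwachman-Diamond syndrome, and PRKDC (41.5 FPKM), the catalytic subunit of DNA-dependent protein kinase. XRCC5 and PRKDC carry the GO term beside their better known role in DNA repair. At the low end, NOP2 was 0.335 FPKM and ZNF658, a zinc finger gene, was 0.371 FPKM. NOP2 is uncertain, because 2550 of its 4687 exon bases overlap a gene on the same strand, AC006064.6, and it had 17 to 32 counts in a library.

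Levels were steady over the 6 libraries, with a median coefficient of variation of 11.1%. In the deposited GO column, 74 of the 95 genes (77.9%) also carried the term nucleolus, against 4.99% of all annotated genes, and 52 (54.7%) carried rRNA processing, against 1.26%. The term mitochondrion was noted for 14 (14.7%), against 9.32%. The label ribosome biogenesis thus covered a mostly nucleolar list with a mitochondrial minority.

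In FGFBP1-CM the ribosome biogenesis genes were mostly somewhat higher than in Vector-CM, by amounts that were small next to those of the top genes of this contrast. The log2 fold change, FGFBP1-CM over Vector-CM, was above 0 for 82 of 95 genes (86.3%), against 50.7% of all tested genes. Its median was 0.15 (middle 50% from 0.06 to 0.28, range -0.23 to 0.91), against 0.00 for all tested genes (middle 50% from -0.14 to 0.15). The standard error (SE) of these values had a median of 0.0868. No gene of the list passed an adjusted p of 0.05 in the edgeR quasi-likelihood test, which 0.12% of all tested genes (20 of 16707) did, and the lowest adjusted p in the list was 0.0568. DESeq2 placed 12 of the 95 past that threshold, and 3.5% of all tested genes (585). At an unadjusted p under 0.05 by edgeR, 37 were higher (38.9%) and 1 was lower (1.05%), where 11.1% of all tested genes were higher and 10.7% lower. The 3 FGFBP1-CM libraries lay above the 3 Vector-CM libraries without overlap for 35 genes (36.8%) and below them for 2, where this held for 12.8% and 13.2% of all tested genes. Since this contrast was used to choose the list, nothing is read from the distance between these shares.

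FGFBP1-CM replicate 1 was farthest from Vector-CM in this list. Relative to the mean of Vector-CM, the median gene of the list was at -0.01, -0.01 and 0.03 on the log2 scale in the Vector-CM libraries and at 0.29, 0.06 and 0.10 in FGFBP1-CM replicates 1 to 3. The medians of all tested genes were between -0.01 and 0.00 in the same libraries. Of the 95 genes, 72 had their highest value in FGFBP1-CM replicate 1, and 84, 63 and 78 were above the Vector-CM mean in replicates 1, 2 and 3. The share of all counts that went to these genes was 0.695% to 0.716% in Vector-CM and 0.814%, 0.732% and 0.771% in FGFBP1-CM. That share uses no TMM factors. With them, the summed CPM of the list was 7041.8 to 7280.5 in Vector-CM and 7950.3, 7336.6 and 7667.4 in FGFBP1-CM replicates 1 to 3. By either measure FGFBP1-CM replicates 2 and 3 were above all 3 Vector-CM libraries by a smaller margin than replicate 1. With TMM factors the margin of replicate 2 was narrow.

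Without FGFBP1-CM replicate 1, the median log2 fold change of the list was 0.07 and 75 of 95 values were above 0, against 49.6% of all tested genes. At an unadjusted p under 0.05, 23 genes of the list were then higher, against 7.73% of all tested genes, and 1 was lower. The remaining FGFBP1-CM libraries lay above all Vector-CM libraries for 35 of the list, against 15.6% of all tested genes. None passed an adjusted p of 0.05, the lowest being 0.0502. The cause of the distance of this library was not tested.

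**Figure D1:**
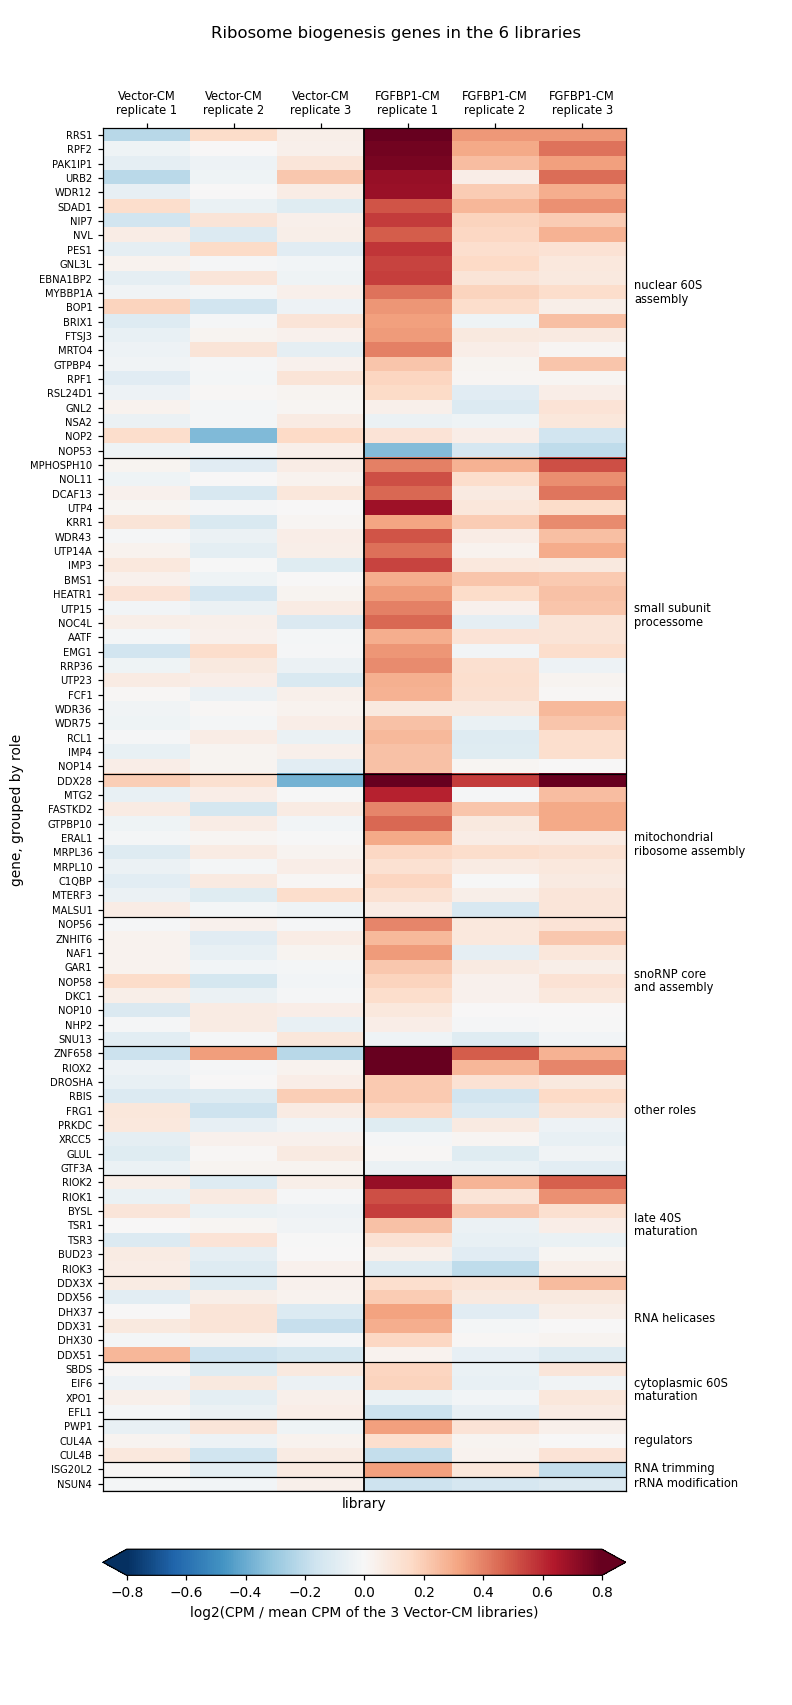
Each row is 1 of the 95 genes and each column 1 of the 6 libraries, and the color is log2 of the CPM over the mean CPM of the 3 Vector-CM libraries, with rows grouped by role and sorted by log2 fold change. The FGFBP1-CM replicate 1 column is the darkest, with 72 genes at their highest there, and replicates 2 and 3 show the same colors more faintly.

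Among the roles, factors of nuclear 60S assembly had the highest median log2 fold change of the groups with at least 3 genes (0.26 over 23 genes, 0.12 without FGFBP1-CM replicate 1). Of these 23, 21 were above 0 and 10 were higher without overlap, beside 50.7% and 12.8% of all tested genes. RRS1 and RPF2 bring the 5S ribosomal RNA and its proteins to the growing 60S particle, and both stood near the top. RPF2 (ENSG00000197498; chromosome 6, 110982015 to 111028263, plus strand) was 23.8, 24.4 and 25.1 CPM in the Vector-CM libraries and 41.7, 30.1 and 33.0 CPM in the FGFBP1-CM libraries. The 2 groups of RPF2 values were well apart, with the highest in FGFBP1-CM replicate 1. Its log2 fold change was 0.52 (SE 0.110), and 0.37 without that library. Its partner RRS1, a gene of 1 exon block (chromosome 8, 66429028 to 66430733, plus strand), was 5.36, 6.94 and 6.47 CPM in Vector-CM and 12.0, 7.97 and 7.95 CPM in FGFBP1-CM. Here too the groups did not overlap, but FGFBP1-CM replicates 2 and 3 lay close to the Vector-CM range. The log2 fold change of RRS1 was 0.59 (SE 0.178), and 0.36 without FGFBP1-CM replicate 1.

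PAK1IP1, another nucleolar 60S factor, was 19.3, 19.7 and 21.7 CPM in Vector-CM and 34.3, 24.1 and 25.5 CPM in FGFBP1-CM, a log2 fold change of 0.47 (SE 0.124), or 0.30 without FGFBP1-CM replicate 1. URB2 overlapped between the media, at 11.9, 13.5 and 16.0 CPM against 22.4, 14.3 and 18.8 CPM (0.44, SE 0.154, or 0.28 without that library). PES1, BOP1 and WDR12 form the PeBoW complex, which is needed to process the RNAs of the large subunit. WDR12 was 30.5, 32.0 and 33.2 CPM in Vector-CM and 51.5, 36.7 and 39.0 CPM in FGFBP1-CM, without overlap (log2 fold change 0.42, SE 0.112). Its partners gave smaller values with overlapping groups, 0.30 (SE 0.114) for PES1 and 0.18 (SE 0.118) for BOP1. Without FGFBP1-CM replicate 1 the 3 values were 0.25 for WDR12, 0.13 for PES1 and 0.09 for BOP1.

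The lowest value of the whole list also belonged to this role. NOP53, a nucleolar protein that recruits the RNA exosome to the pre-60S particle (chromosome 19, 47745522 to 47757058, plus strand), was 91.3, 92.9 and 96.3 CPM in Vector-CM and 73.6, 85.2 and 81.2 CPM in FGFBP1-CM. All 3 FGFBP1-CM libraries were below all 3 Vector-CM libraries, and replicate 1 was again the farthest. The log2 fold change of NOP53 was -0.23 (SE 0.0698), and -0.17 without that library. Its exons also cover the snoRNA SNORD23, with 110 bases shared on the same strand. NSA2, the most abundant gene of this role at 33.2 FPKM, did not differ beyond its error, with a log2 fold change of 0.01 (SE 0.0654). Of its 4962 exon bases, 2540 overlap FAM169A on the opposite strand, and whether counting used strand is not stated.

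All 22 genes of the small subunit processome were above 0, with values from 0.09 to 0.40 and a median of 0.21, and all 22 stayed above 0 without FGFBP1-CM replicate 1, at a median of 0.11. MPHOSPH10, the scaffold of the MPP10 complex (chromosome 2, 71130314 to 71150101, plus strand), had the highest value. It was 29.9, 27.6 and 30.7 CPM in Vector-CM and 38.8, 35.6 and 42.0 CPM in FGFBP1-CM. In contrast to most of the list its highest library was FGFBP1-CM replicate 3, and its log2 fold change was 0.40 (SE 0.0840) both with and without replicate 1. The MPP10 partners IMP3 and IMP4 were lower in their values, 0.25 (SE 0.141) and 0.10 (SE 0.0834), and overlapped between the media. Without FGFBP1-CM replicate 1 they were 0.08 and 0.03. SNX33, on the opposite strand, covers 801 of the 2565 exon bases of IMP3. WDR36, the most abundant of the group at 25.6 FPKM, was 183, 188 and 191 CPM in Vector-CM and 197, 197 and 224 CPM in FGFBP1-CM, a log2 fold change of 0.14 (SE 0.0676). That value was 0.07 without FGFBP1-CM replicate 3 and 0.05 after correction for GC content and length. NOP14 had the lowest value of the group at 0.09 (SE 0.0885), with overlapping groups.

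Within the processome the UTP-A complex binds the nascent precursor first and has also been tied to its transcription. Its 6 genes in the list (UTP4, UTP15, WDR43, WDR75, HEATR1 and NOL11) had log2 fold changes from 0.14 to 0.35, with a median of 0.26, and 4 of the 6 were higher without overlap, beside 12.8% of all tested genes. NOL11 was highest, at 63.4, 65.1 and 66.2 CPM in Vector-CM and 92.8, 71.4 and 84.0 CPM in FGFBP1-CM. UTP4 depended most on FGFBP1-CM replicate 1, at 25.1, 24.6 and 24.8 CPM against 39.7, 26.4 and 27.4 CPM, and its value moved from 0.33 to 0.12 when that library was left out. The median of the 6 was then 0.15, and the 6 values were still above 0.

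**Figure D2:**
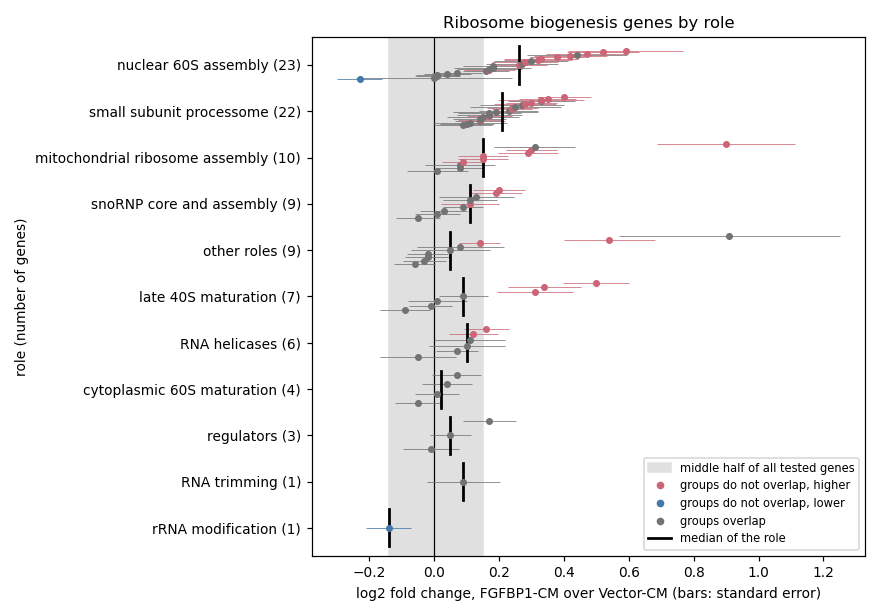
Log2 fold change of each of the 95 genes (points, with the standard error as a bar), in rows by role with the number of genes, where the black line is the median of the role and the grey band holds the middle 50% of all tested genes. The medians of nuclear 60S assembly (0.26) and the small subunit processome (0.21) lie to the right of the grey band, and those of the other roles lie within it or at its edge.

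The late 40S factors were split. RIOK2, an atypical kinase that frees assembly factors from the pre-40S particle in the cytoplasm (chromosome 5, 97160867 to 97183260, minus strand), was 29.8, 26.8 and 29.7 CPM in Vector-CM and 46.6, 34.8 and 40.2 CPM in FGFBP1-CM. The groups did not overlap, and the log2 fold change was 0.50 (SE 0.102), or 0.38 without FGFBP1-CM replicate 1. The related kinase RIOK1 was 15.7, 17.1 and 16.2 CPM against 23.3, 17.5 and 21.0 CPM, also without overlap (0.34, SE 0.112). RIOK3, the most abundant of the 3 kinases at 23.0 FPKM against 6.31 FPKM for RIOK2, gave -0.09 (SE 0.0763), at 120, 107 and 118 CPM against 107, 100 and 119 CPM. The RIO kinases therefore differed within their family, with RIOK1 and RIOK2 higher in every FGFBP1-CM library and RIOK3 overlapping.

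The snoRNP proteins were among the most abundant of the list, with a median of 27.8 FPKM, and were close to equal in the media (median log2 fold change 0.11, range -0.05 to 0.20). NOP56, a core protein of the box C/D snoRNPs that guide ribose methylation, was 25.6, 26.1 and 24.9 FPKM in Vector-CM and 34.8, 27.4 and 28.1 FPKM in FGFBP1-CM, given per length for this gene. The groups of NOP56 did not overlap, the margin in replicates 2 and 3 was small, and its log2 fold change was 0.20 (SE 0.0801), or 0.10 without replicate 1. Its paralog NOP58 overlapped, at 52.1, 42.8 and 46.4 CPM against 53.3, 48.2 and 51.1 CPM (0.11, SE 0.0822), and the third box C/D protein SNU13 gave -0.05 (SE 0.0667). Of the 4 box H/ACA proteins, DKC1, the pseudouridine synthase, gave 0.09 (SE 0.0616), GAR1 0.11 (SE 0.0902), NOP10 0.03 (SE 0.0727) and NHP2 0.01 (SE 0.0682).

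Although the subunits of a snoRNP act together, their transcripts were not equal in level. The 4 box H/ACA genes spanned a 10.5-fold range, from 10.1 FPKM for GAR1 to 106 FPKM for NOP10, with DKC1 (37.7 ± 2.32 FPKM) and NHP2 (35.9 ± 1.57 FPKM; SD, n = 6) side by side. The box C/D genes spanned 2.71-fold, from 14.9 FPKM for NOP58 to 40.5 FPKM for SNU13, and the PeBoW genes 2.88-fold. DKC1 and NHP2 did not differ beyond their spread over the libraries, nor did WDR12 (4.10 ± 0.920 FPKM) and BOP1 (4.08 ± 0.570 FPKM). For both pairs this holds per length only. The lengths implied by the FPKM values were 4203 bases for DKC1 and 1434 for NHP2, and 9066 for WDR12 and 3841 for BOP1. In every library DKC1 had more counts than NHP2, and WDR12 had more than BOP1.

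**Figure D3:**
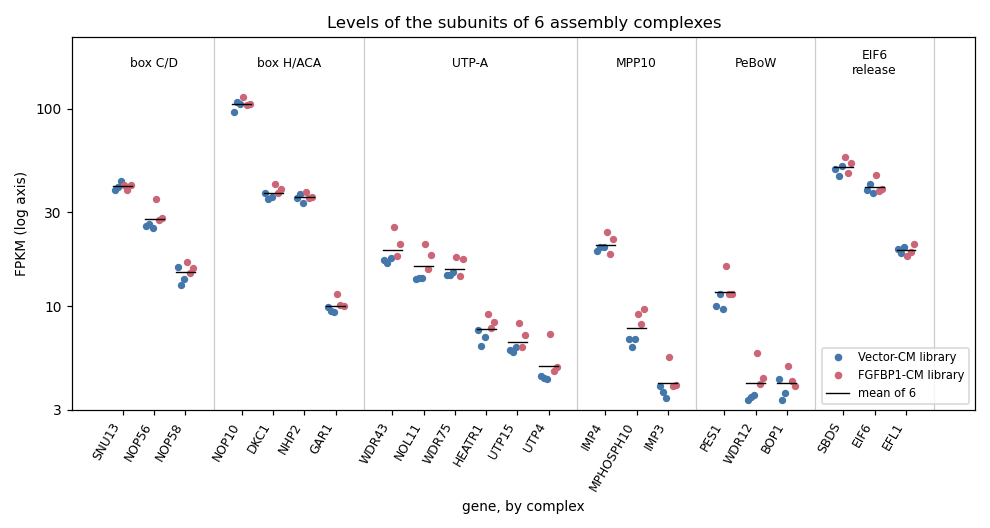
FPKM on a log axis in each of the 6 libraries for the subunits of 6 complexes, with Vector-CM libraries in blue, FGFBP1-CM libraries in red and the mean of 6 as a black line. NOP10 sits at 106 FPKM above its partners in the box H/ACA snoRNP, and the red points of the UTP-A and PeBoW genes lie mostly above the blue points, with FGFBP1-CM replicate 1 the highest in most.

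All 10 genes of mitochondrial ribosome assembly were above 0 (median 0.15, range 0.01 to 0.90). Without FGFBP1-CM replicate 1, 9 of the 10 were above 0 and the median was 0.10. DDX28, a mitochondrial RNA helicase of large subunit assembly encoded by 1 exon block (chromosome 16, 68021274 to 68023442, minus strand), was 3.41, 3.26 and 2.29 CPM in Vector-CM and 7.07, 4.39 and 5.26 CPM in FGFBP1-CM. Those values come from 34 to 134 counts in a library. The groups did not overlap, and the log2 fold change was 0.90 (SE 0.213), or 0.69 without FGFBP1-CM replicate 1. Of its 2169 exon bases, 487 overlap DUS2 on the opposite strand, and whether counting used strand is not stated. C1QBP, the most abundant of this role at 33.7 FPKM, gave 0.08 (SE 0.0714). MALSU1, an assembly factor of the mitochondrial large subunit, gave 0.01 (SE 0.0942), or -0.01 without FGFBP1-CM replicate 1. IGF2BP3, on the opposite strand, covers 1521 of the 3851 exon bases of MALSU1.

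RIOX2 is a ribosomal oxygenase that hydroxylates a ribosomal protein of the large subunit (chromosome 3, 97941818 to 97972457, minus strand). It was 13.4, 13.7 and 14.1 CPM in Vector-CM and 25.3, 16.6 and 18.1 CPM in FGFBP1-CM, without overlap, a log2 fold change of 0.54 (SE 0.141), or 0.34 without FGFBP1-CM replicate 1. CRYBG3, on the opposite strand, covers 1898 of its 6880 exon bases. ZNF658 had the highest value of all 95, 0.91 (SE 0.341), but at 1.12, 1.59 and 1.08 CPM against 3.64, 1.76 and 1.53 CPM the groups overlapped, and the value was 0.40 without FGFBP1-CM replicate 1.

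The remaining roles were nearly level between the media. The 6 RNA helicases had a median of 0.10, led by DDX3X at 414, 368 and 404 CPM against 434, 424 and 470 CPM (0.16, SE 0.0692), with DDX51 lowest at -0.05 (SE 0.118). The 4 genes of 60S export and cytoplasmic maturation had a median of 0.02: SBDS gave 0.07 (SE 0.0756), and its GTPase partner EFL1, which acts with it to evict EIF6 from the new subunit, gave -0.05 (SE 0.0720). EIF6 itself gave 0.04 (SE 0.0778). The regulators PWP1, CUL4A and CUL4B ranged from -0.01 to 0.17, and GTF3A, the transcription factor of the 5S ribosomal RNA genes, gave -0.06 (SE 0.0631). NSUN4, an RNA methyltransferase of the mitochondrial ribosome, was 38.4, 38.2 and 39.9 CPM in Vector-CM and 34.6, 35.3 and 35.8 CPM in FGFBP1-CM. It was, with NOP53, 1 of the 2 genes that were lower without overlap, at a log2 fold change of -0.14 (SE 0.0701).

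Differences were larger among the less abundant genes. Over the 95 genes Spearman's rho between log2 fold change and mean FPKM was -0.443, against -0.105 over all 16707 tested genes, and it was -0.316 without FGFBP1-CM replicate 1. All of these points share the same 6 libraries. Low counts spread fold changes more widely, and the part of this in the relation was not tested. The 47 genes under the median FPKM of the list had a median log2 fold change of 0.24, and the other 48 had 0.09. The 10 most abundant genes, from NSA2 at 33.2 FPKM up to NOP10, lay between -0.05 and 0.09.

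**Figure D4:**
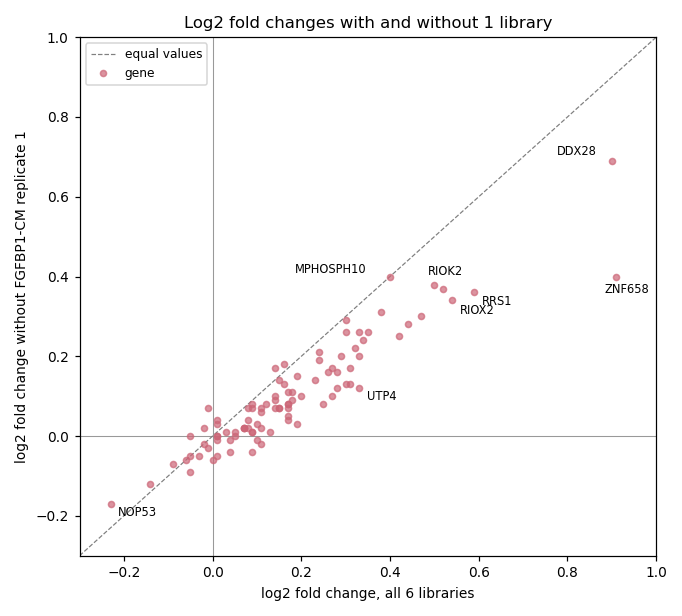
Each point is 1 of the 95 genes, with its log2 fold change over all 6 libraries on the horizontal axis and without FGFBP1-CM replicate 1 on the vertical axis. Most points lie below the dashed line of equal values: ZNF658 moves from 0.91 to 0.40 and UTP4 from 0.33 to 0.12, while MPHOSPH10 stays at 0.40.

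The promoters of the list were searched because many of its genes were higher in the same medium. A RefSeq promoter (GRCh38.p14, 250 bases before to 50 after the start) was matched for 79 of the 95 genes. RRS1, RIOX2, RPF2, URB2 and MPHOSPH10, with log2 fold changes from 0.40 to 0.59, had no match and were not searched. The motif CACGTG, an E-box that reads the same on both strands and is bound by the MYC and MAX family among others, was in 22 of 79 (27.8%), against 8.88% of 15843 protein-coding promoters of the same length. CCGGAAG, a core bound by ETS family factors, was in 32 (40.5%) against 14.2%. The GC box GGGCGG was in 51 (64.6%) against 58.5%, and TATAAA was in 2 (2.53%) against 9.63%, all on both strands. The median GC content was 63.0% for the promoters of the list and 62.7% for all. The comparison set was not limited to genes expressed in these cells, whereas all genes of the list passed the filter on low counts. Shares among expressed genes were not computed. The letters alone do not show binding.

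The 4 promoters that follow are those of the matched genes with the highest log2 fold change that held CACGTG, and the motif is in capitals. They are shown 5′ to 3′ along the gene, for PAK1IP1 (chr6:10694722-10695021, plus strand), SDAD1 (chr4:75990896-75991195, minus strand), UTP4 (chr16:69132399-69132698, plus strand) and BYSL (chr6:41921249-41921548, plus strand).
PAK1IP1: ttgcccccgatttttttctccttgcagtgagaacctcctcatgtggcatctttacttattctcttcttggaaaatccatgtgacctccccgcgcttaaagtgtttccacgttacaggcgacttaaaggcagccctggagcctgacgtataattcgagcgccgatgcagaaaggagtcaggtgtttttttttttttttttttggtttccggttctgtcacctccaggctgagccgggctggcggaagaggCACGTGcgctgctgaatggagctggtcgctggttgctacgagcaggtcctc
SDAD1: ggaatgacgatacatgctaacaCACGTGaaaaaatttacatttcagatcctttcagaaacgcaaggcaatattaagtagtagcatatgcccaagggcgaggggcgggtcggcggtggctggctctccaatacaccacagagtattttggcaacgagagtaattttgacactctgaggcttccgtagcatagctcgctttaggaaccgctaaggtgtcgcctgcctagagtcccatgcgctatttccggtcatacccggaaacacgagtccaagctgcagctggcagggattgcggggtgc
UTP4: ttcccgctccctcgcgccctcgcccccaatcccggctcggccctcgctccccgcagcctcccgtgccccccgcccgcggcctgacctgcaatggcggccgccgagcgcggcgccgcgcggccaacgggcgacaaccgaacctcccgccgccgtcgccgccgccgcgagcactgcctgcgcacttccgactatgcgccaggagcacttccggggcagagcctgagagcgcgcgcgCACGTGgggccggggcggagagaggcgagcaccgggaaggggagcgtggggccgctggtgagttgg
BYSL: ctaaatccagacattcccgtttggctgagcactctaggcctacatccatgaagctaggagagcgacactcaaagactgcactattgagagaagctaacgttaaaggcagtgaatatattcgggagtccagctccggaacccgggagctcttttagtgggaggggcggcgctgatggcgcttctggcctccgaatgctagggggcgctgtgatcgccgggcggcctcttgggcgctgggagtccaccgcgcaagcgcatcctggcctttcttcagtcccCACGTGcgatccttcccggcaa

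Counted from the start of the gene, the motif began at -1 in PAK1IP1, -228 in SDAD1, -16 in UTP4 and 29 in BYSL, so that its place was not fixed. Over the 22 promoters the first match began at a median of -8.5, and in 10 it began after the start. The 22 genes with the motif had a median log2 fold change of 0.17 (range -0.00 to 0.47) and the 57 matched genes without it had 0.14 (range -0.23 to 0.91). SDAD1, a 60S factor, was 44.8, 39.1 and 37.9 CPM in Vector-CM and 57.6, 48.8 and 52.4 CPM in FGFBP1-CM, and BYSL, which is needed for 40S assembly, was 18.0, 16.2 and 16.3 CPM against 24.6, 19.5 and 18.4 CPM. Genes with CCGGAAG had a median of 0.10 and those without it 0.17.

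Nucleolar factors that do not carry the GO term lay on the same side of 0, nearer to it. Of 208 such genes tested, 167 were above 0, 60 were higher and 4 lower at an unadjusted p under 0.05, and the median log2 fold change was 0.11. Of all tested genes, 50.7% were above 0, 11.1% were higher and 10.7% lower. Without FGFBP1-CM replicate 1, 145 of the 208 were above 0, 36 were higher and 1 lower, and the median was 0.05. None passed an adjusted p of 0.05 in edgeR with all libraries. NCL, which encodes nucleolin and is abundant at 70.7 FPKM, gave 0.25 (SE 0.0743; adjusted p = 0.0948, edgeR). NPM1 (0.03, SE 0.0659), FBL (-0.09, SE 0.0675) and NOLC1 (0.16, SE 0.0694) were spread on both sides of 0. UTP20, a large processome protein, gave 0.45 (SE 0.0871; adjusted p = 0.0568, edgeR).

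RNA polymerase I was higher in its large subunits, short of the threshold. POLR1A, the largest subunit, had means of 60.9 and 87.5 CPM in Vector-CM and FGFBP1-CM (log2 fold change 0.53, SE 0.116; adjusted p = 0.0591, edgeR), and POLR1B, the second largest, gave 0.48 (SE 0.132; adjusted p = 0.0851, edgeR). The smaller subunits POLR1C, POLR1E and POLR1D gave 0.25 (SE 0.120), 0.08 (SE 0.0838) and -0.13 (SE 0.0931). RRN3, which carries the polymerase to its promoter, gave 0.31 (SE 0.0978), and UBTF, the promoter-bound architectural factor, 0.14 (SE 0.0957). TAF1D had the lowest value among the polymerase I genes and factors, at -0.27 (SE 0.133). Over the 18 genes of this polymerase and its factors 14 were above 0, 4 were higher at an unadjusted p under 0.05 and 0 lower, and the median was 0.08, beside the same shares of all tested genes. Without FGFBP1-CM replicate 1, 11 were above 0, 4 were higher and 1 lower, the median was 0.03, and POLR1A passed the threshold (adjusted p = 0.0424, edgeR). Of 20 RNA polymerase III genes, 16 were above 0, 6 were higher and 1 lower, with a median of 0.06, or 13, 5 and 0 with a median of 0.02 without FGFBP1-CM replicate 1. POLR3B had the highest value at 0.78 (SE 0.149; adjusted p = 0.0568, edgeR).

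Of 20 growth control genes around MYC and mTOR, 11 were above 0, 5 were higher and 1 lower at an unadjusted p under 0.05 (all tested genes: 50.7%, 11.1% and 10.7%), and the median was 0.05. MYC gave 0.22 (SE 0.0910; adjusted p = 0.179, edgeR) and its antagonist MXI1 -0.21 (SE 0.0720; adjusted p = 0.134, edgeR). MTOR gave 0.07 (SE 0.0659), its partner RPTOR 0.33 (SE 0.10) and its activator RHEB -0.15 (SE 0.0696). The inhibitors TSC1 and TSC2 gave 0.27 (SE 0.0790) and -0.13 (SE 0.126). Signs were thus mixed among activating and among inhibiting genes, but MTOR and TSC2 were no farther from 0 than about their SE. Some genes of the polymerase I and growth control lists, POLR1A, POLR1B, MYC and MTOR among them, also count among the nucleolar factors above.

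Genes of proliferation did not share the direction of the list. Of 10 such genes 7 were below 0 and the median was -0.08, from RRM2 at -0.33 (SE 0.0780) to MKI67 at 0.07 (SE 0.0765). Stellate markers lay mostly below 0, with 11 of 12 tested genes below 0 and a median of -0.29, and their summed level was 3560 to 3790 CPM in Vector-CM and 2840 to 3300 CPM in FGFBP1-CM. Of these, TIMP1 fell by 0.38 on the log2 scale (SE 0.0623; adjusted p = 0.0465, edgeR). Hepatocyte transcripts were lower by more. All 5 tested of 12 listed were below 0 without overlap, beside 13.2% of all tested genes. Their median was -2.44 (-2.75 without FGFBP1-CM replicate 1). ALB, APOB and FGA passed an adjusted p of 0.05 in edgeR, beside 0.12% of all tested genes. These 3 had few counts. Summed over the libraries of Vector-CM and FGFBP1-CM they were 157 against 32, 157 against 14 and 43 against 3. The summed level of the 12 was 39.4 to 40.3 CPM in Vector-CM and 18.2 to 27.2 CPM in FGFBP1-CM. Most of it came from SERPINA1, with means of 29.6 and 20.7 CPM (log2 fold change -0.53, SE 0.129). The part of these shifts in the values of the ribosome biogenesis genes was not tested. In bulk RNA, more transcript per cell and more cells of a kind that express it cannot be told apart.

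**Figure D5:**
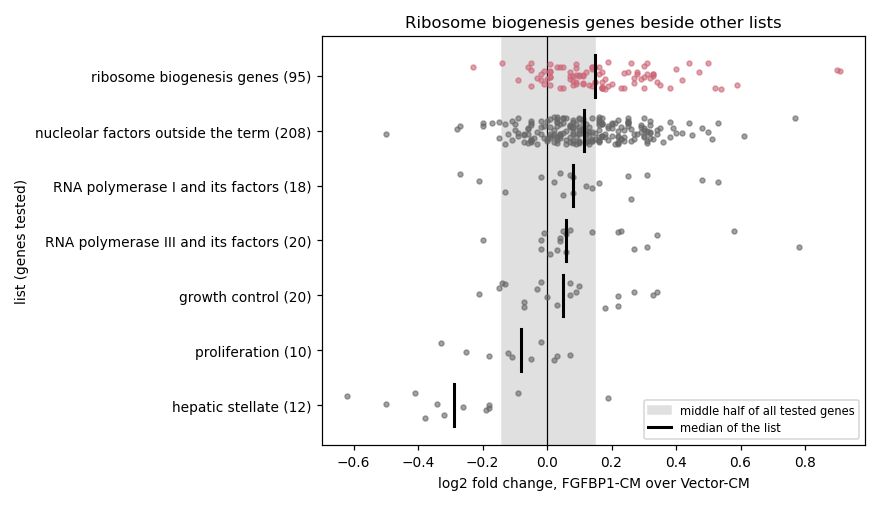
Log2 fold change of every tested gene (points) in the 95 ribosome biogenesis genes and 6 other lists, with the median of each list as a black line and the middle 50% of all tested genes in grey. The medians descend from 0.15 for the ribosome biogenesis genes through 0.11 for nucleolar factors outside the term to -0.29 for stellate markers.

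Base composition and shared reads were also examined. Over all tested genes the log2 fold change was lower at higher transcript GC content (Spearman's rho -0.206 over 16401 genes), and the median GC content was 46.0% for the list and 47.7% for all genes. After removal of the trend with GC content and length, the median of the list was 0.12 and 77 genes were above 0. At an unadjusted p under 0.05, 37 were higher and 2 lower in that fit. Of all 16707 tested genes, 9.8% were then higher and 1936 were lower, and their median was -0.008. Exons of 58 of the 95 genes overlap another gene, in 8 by more than 25% of their length, and reads may also be shared with pseudogenes, whose counts came to 27.9% of those of SBDS and 21.4% of those of BMS1. Leaving out the 10 genes with overlap above 25% or with pseudogene counts above 5% of their own, the other 85 had the same median of 0.15. Of these 85, 35 were higher at an unadjusted p under 0.05 in the main fit, beside 11.1% of all tested genes.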

How the data were processed

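RNA from 6 LX-2 libraries, 3 per conditioned medium, was sequenced by the authors as paired-end reads. Per the labels and methods, the authors aligned reads with HISAT2 2.0.5 and deposited featureCounts 1.5.0-p3 raw counts per gene. The same table holds FPKM values, also deposited by the authors. The labels name the build hg18, the annotation and strand setting are not given in the sources used here, and both poly(A) selection and ribosomal RNA depletion are described. Gene lengths implied by the FPKM values were within 5% of GENCODE 29 (GRCh38) exon lengths for 71 of the 95 genes, and for 85% of 36572 genes compared. Some of the list differed widely, such as GNL3L (11949 against 2589 bases) and XPO1 (23843 against 11708). All comparisons of FPKM between genes depend on these lengths. Gene coordinates are those of GENCODE 29, which need not be the build counted on. The table had 60780 rows, and its 175 rows with an identifier of the authors' own, 0.0769% of counts, were left out.

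The media were compared on the counts with edgeR 4.0.16 (R 4.3.3; filterByExpr, TMM scaling, quasi-likelihood F-test) and Benjamini-Hochberg adjustment over 16707 genes, after the script was tested on simulated data. The standard error is the size of the log2 fold change divided by the square root of F. A count of 0 allows up to 3 counts, 0.158 to 0.217 CPM, for counting error only. Alternatives were RLE scaling, library size only, other filters, DESeq2 1.42.0, limma 3.58.1 on log2(FPKM + 1) and log2(FPKM + 0.1), a replicate block, a loess correction (span 0.3) for GC content and length, and leaving out each library.

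The genes, roles, lists and tests were chosen with earlier results of these data known. Genes named by rule were, per role with at least 3 genes, the most abundant and those with the highest and lowest log2 fold change (mean of at least 1 CPM), the 8 highest and 5 lowest of all, and textbook nucleolar and snoRNP genes. Complex subunits, kinase relatives and other genes were named after their values were seen. Protein sequences were not used here.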

Additional observations from a re-analysis of the deposited data

How the results depend on the processing

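The median log2 fold change of the 95 genes stayed above 0 under every alternative run, from 0.075 to 0.193 when libraries were left out in turn, and at 0.12 after the GC and length correction. Genes of the list past an adjusted p of 0.05 were 0 in edgeR as used, but 25 without a filter on low counts, 12 with DESeq2, 1 (RIOK2) with the replicate block, and 0 to 17 when libraries were left out (17 without FGFBP1-CM replicate 2, 6 without FGFBP1-CM replicate 3). Those higher at an unadjusted p under 0.05, 37 of 95, were 23 to 45 when libraries were left out. There were 23 without FGFBP1-CM replicate 1 and 24 without Vector-CM replicate 3, beside 7.73% and 7.26% of all tested genes. The share of all tested genes was itself 7.26% to 12.4% over these fits. Those higher without overlap were 35 to 54, with 54 without FGFBP1-CM replicate 2, where a smaller group overlaps less by construction. For all tested genes that share is given only without FGFBP1-CM replicate 1, at 15.6%. The count of lower genes, 1, was 2 with the GC and length correction and 3 when that was joined to the replicate block. Of all 16707 tested genes, 1936 and 1948 were lower in those fits.

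Over all tested genes, the 20 past an adjusted p of 0.05 became 38 with RLE scaling, 1382 without a filter, 11 at a mean of at least 1 CPM, 585 with DESeq2, 1 with limma under either pseudocount, 90 with the replicate block, 46 with the GC and length correction, 61 with both, and 4 to 883 when libraries were left out (4 without Vector-CM replicate 2 or 3, 6 without Vector-CM replicate 1, 72, 883 and 402 without FGFBP1-CM replicates 1, 2 and 3). The cause of these moves was not tested. Without a filter edgeR's prior degrees of freedom were infinite, against 9.32. Of calls at an unadjusted p under 0.05, 51.0% were higher with TMM, 64.7% with library size only, and 60.3% and 60.8% with limma on log2(FPKM + 1) and log2(FPKM + 0.1). With library size only the median of the list was 0.18 and 88 of 95 were above 0.

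Same-numbered libraries of the media did not deviate together (correlations of -0.118, -0.022 and 0.148 over 15033 genes), and 2 of 6 libraries correlated best with their own number, so the numbers were not taken as pairs. Of 560 alternative values for 35 named genes, 545 moved by less than the spread between replicates and 15 by more. None of the 15 came from leaving out FGFBP1-CM replicate 1, although ZNF658 then went from 0.91 to 0.40. A spread that includes the library left out can hide such a move, so these counts do not show stability. Signs changed in 31 of the 560 values. They belonged to 9 genes whose log2 fold changes lay close to 0 (NOP10, MALSU1, NSA2, NHP2, CUL4B, XRCC5, EFL1, DDX51 and SNU13). Over all 95 genes 68 were above 0 and 4 below 0 in every fit. Libraries of 14003780 to 18508113 counts give little precision for genes near 1 CPM such as ZNF658 and NOP2.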
